A study of Mus musculus with 12 samples.

Results

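The 9 genes described here encode enzymes or subunits of the tricarboxylic acid (TCA) cycle. They were chosen by name as Cs, Idh3a, Idh3b, Idh3g, Ogdh, Sucla2, Suclg1, Fh1 and Mdh2, and all 9 were found by their mouse Ensembl identifier among the 23474 genes of the FPKM table of epididymal white adipose tissue (eWAT). The 12 libraries came from male C57BL/6J mice, 17 weeks old, after 12 weeks on a normal diet (ND), a high-fat diet (HFD), an HFD to which green tea extract had been added at 0.25% (w/w) (GT), or an HFD with Taeeumjowuitang, a herbal formula, at 3% (w/w) (TJ), with 3 libraries in each group. The ND group is therefore the only one without the HFD, and the GT and TJ groups differ from the HFD group by the addition. The published methods describe only the HFD and TJ groups, with 3 mice taken at random from each for sequencing. FPKM scale the fragments of a gene to the length of its transcript and to the depth of the library, so levels of different genes are compared per length, and the table gives no counts from which a counting error could be had.

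The TCA cycle runs in the mitochondrial matrix. Citrate synthase joins acetyl-CoA to oxaloacetate, isocitrate and 2-oxoglutarate are then decarboxylated oxidatively with release of NADH, succinyl-CoA ligase yields a nucleoside triphosphate, and fumarase and malate dehydrogenase return the carbon to oxaloacetate. In adipocytes the cycle feeds the respiratory chain, and its citrate also leaves the mitochondrion as the carbon source of fatty acid synthesis. Most of the enzymes are used in every cell that respires, so their mRNA in a tissue piece is a sum over adipocytes, macrophages, endothelial and stromal cells. In such bulk samples, fewer cells of a type and less RNA per cell cannot be told apart.

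RefSeq promoter windows, from 250 bases before to 50 after a start, were given for 8 of the 9 members, all but Idh3a. The upstream stretches of Idh3g and Fh1 are printed because both genes had all 3 HFD values below those of the 8 other libraries left when ND replicate 1 is set aside. Ogdh had so too, and its 6 overlapping or neighbouring windows are not printed. The sequences are from GRCm38.p6, leave out annotated exons, are written 5′ to 3′ on the minus strand that is transcribed, and carry in capitals the exact matches on either strand to CGGAAG (ETS factors such as GABP), CCAAT (NF-Y) and AAGATGG (YY1), which do not overlap each other here. That of Idh3g lies at chrX:73786898-73787027 and ends 1 base before its start, with the exons of its head-to-head neighbour Ssr4 on the far side. That of Fh1 lies at chr1:175625636-175625885.
Idh3g: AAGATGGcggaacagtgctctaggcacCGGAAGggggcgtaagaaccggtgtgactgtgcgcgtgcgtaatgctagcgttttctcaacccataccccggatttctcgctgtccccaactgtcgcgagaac
Fh1: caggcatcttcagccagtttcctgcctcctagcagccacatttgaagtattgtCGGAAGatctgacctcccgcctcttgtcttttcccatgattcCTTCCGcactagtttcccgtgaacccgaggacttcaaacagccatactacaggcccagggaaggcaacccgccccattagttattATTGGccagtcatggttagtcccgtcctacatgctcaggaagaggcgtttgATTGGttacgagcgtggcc
CGGAAG was found in windows of 5 of the 8 members (Fh1, Idh3b, Idh3g, Mdh2 and Ogdh). Counted by window, it was in 7 of the 13 member windows and in 16.9% of the 32851 windows of all genes. CCAAT was found in windows of 4 members (Cs, Fh1, Idh3b and Ogdh), that is in 9 of the 13, and in 37.4% of all windows. AAGATGG was found in Idh3g alone among the members (6.34% of all windows), and AAGGTCA (the half-site bound by ERR, 4.72%) and GCGCATG (NRF1, 3.91%) in Ogdh alone. Ogdh has 6 of the 13 member windows and so more sequence in which a match can fall. A match describes the letters only.

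ND replicate 1 goes against its tissue label. The summed level of 8 germ cell markers of the testis was 96990 FPKM in this library, against 152.8 and 2797 FPKM in ND replicates 2 and 3, 27.72 to 1981 FPKM in the HFD group, 14.68 to 74.04 FPKM in the GT group and 0.6017 to 9.019 FPKM in the TJ group. Its 8 adipocyte markers summed to 4351 FPKM, whereas the other 11 libraries had 18400 to 71400 FPKM. Its 6 epididymis markers summed to 15180 FPKM, and HFD replicate 2 followed with 1662 FPKM. The FPKM of all genes summed to 1002765 in ND replicate 1 and to 527904 to 725245 in the others. HFD against ND is therefore given for the members both with and without ND replicate 1. Of the markers of other cell types, Ms4a1 of B cells was at 0 in every library.

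With ND replicate 1 set aside, the highest of 11 libraries exceeded the lowest by 1.42-fold for Sucla2 to 2.16-fold for Mdh2. Mdh2, mitochondrial malate dehydrogenase, had the highest mean FPKM in all 4 groups and Fh1, fumarase, the lowest. In the HFD group the means ran from Mdh2 (152 ± 17.1 FPKM, SD, n = 3) over Cs (131 ± 10.6), Sucla2 (94.3 ± 6.82), Idh3g (93.5 ± 5.40), Idh3a (89.7 ± 1.73), Ogdh (88.0 ± 5.28), Idh3b (82.0 ± 0.641) and Suclg1 (51.7 ± 4.02) to Fh1 (37.2 ± 1.02 FPKM). The ranges of Mdh2 and Cs overlapped, as did those of each neighbouring pair from Sucla2 to Ogdh, while Idh3b, Suclg1 and Fh1 each stood apart from the next. In the TJ group Idh3g took the second rank with 133 ± 28.2 FPKM, ahead of Cs with 116 ± 15.6 FPKM, although their ranges overlapped and Idh3g was the higher in 1 of 3 libraries. The 9 levels summed to 785 to 851 FPKM in the HFD group, 851 to 939 FPKM in the GT group and 841 to 1002 FPKM in the TJ group. In the ND group the sum was 511 FPKM in replicate 1 and 994 and 870 FPKM in replicates 2 and 3.

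**Figure D1:**
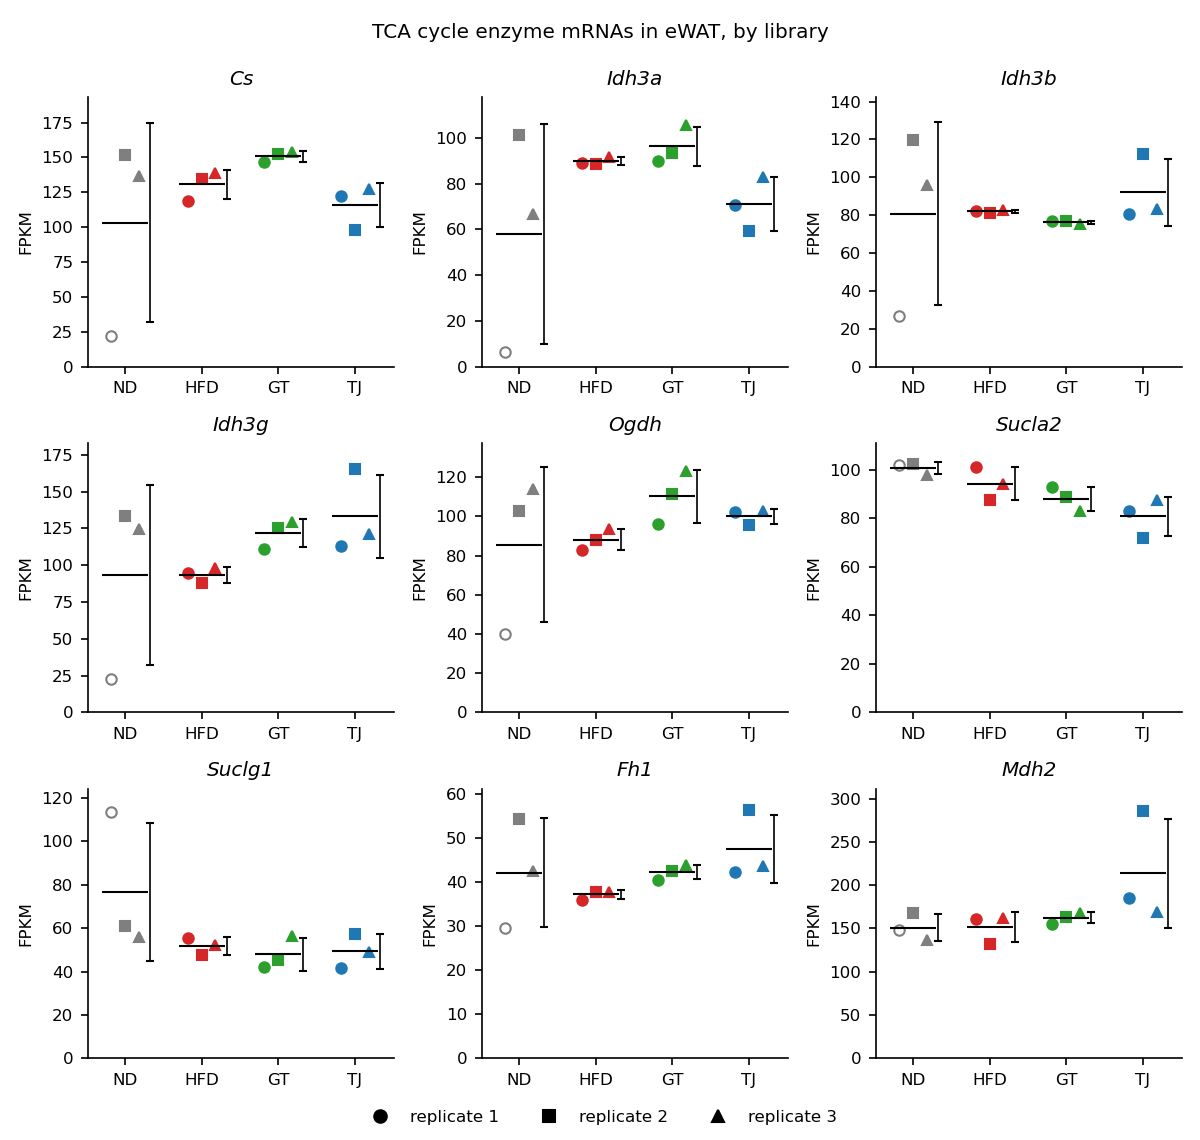
FPKM of each member (y axis, from 0) in the 12 libraries by diet group (x axis), with marker shape giving the replicate, the open circle ND replicate 1, the line the mean and the bar 1 SD (n = 3). ND replicate 1 is far below the other libraries for Cs, Idh3a, Idh3b and Idh3g and far above them for Suclg1, and TJ replicate 2 is the highest of all for Idh3g, Fh1 and Mdh2.

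None of the 9 members passed the test in any of the 4 comparisons, in which limma was fitted to log2(FPKM + 1) over all genes whose mean reached 1 FPKM, and passing means an adjusted p-value (Benjamini-Hochberg) under 0.05. The share of all tested genes that passed was 20.5% for TJ against HFD, 4.82% for GT against HFD, 0.148% for TJ against GT and 1.77% for HFD against ND. At an unadjusted p-value under 0.05 the members numbered 1 for TJ against HFD, 2 for GT against HFD, 2 for TJ against GT and 0 for HFD against ND. The corresponding shares of all genes were 41.4%, 29.3%, 24.6% and 11.6%. When ND replicate 1 was left out, Idh3g alone passed in HFD against ND, as a lower level, where 16.0% of all genes passed and 4.54% passed with a lower level. The count of calls over all genes depends on single libraries. In TJ against HFD it was 2626, and it was 0 whenever HFD replicate 1, HFD replicate 2, HFD replicate 3 or TJ replicate 1 was left out. In those 4 fits 3732 to 4735 genes had an unadjusted p-value under 0.05. In GT against HFD it was 615, it was 4 to 66 when an HFD library or GT replicate 2 or 3 was left out, and it was 1375 without GT replicate 1. In HFD against ND it was 255 with all libraries, 2189 without ND replicate 1, 23 or 24 without ND replicate 3 or 2, 0 without any one of the HFD libraries (with 843 to 982 below 0.05 before adjustment) and 0 with the replicate block, under which 2239 genes had an unadjusted p-value below 0.05. In TJ against GT it was 18, from 4 to 6 without GT replicate 1, 2 or 3 or TJ replicate 1, and 81 or 75 when TJ replicate 2 or 3 was left out. The differences of the members were also small in size, with a median absolute log2 fold change of 0.22 for TJ against HFD where all tested genes had 0.42. It was 0.12 against 0.24 for GT against HFD and 0.15 against 0.28 for TJ against GT. The standard errors of the members were 0.12 to 0.22 for TJ against HFD and 0.08 to 0.13 for GT against HFD, and the median over all genes was 0.20 and 0.15.

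The 3 comparisons with HFD share the same 3 HFD libraries, and over the whole set of tested genes the log2 fold change had a median of -0.14 for TJ against HFD and -0.12 for GT against HFD. Scaling by median of ratios moved these medians to -0.03 and -0.02, and quantile normalization moved both to 0.03. The former divides each library by a single factor and so moves all genes at such levels alike. With it the log2 fold changes of the 9 members rose by 0.13 in TJ and 0.11 in GT against HFD. Quantile normalization raised all 9 in GT by up to 0.10, but lowered 7 of the 9 in TJ by up to 0.14 (Fh1 and Suclg1 were higher).

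**Figure D2:**
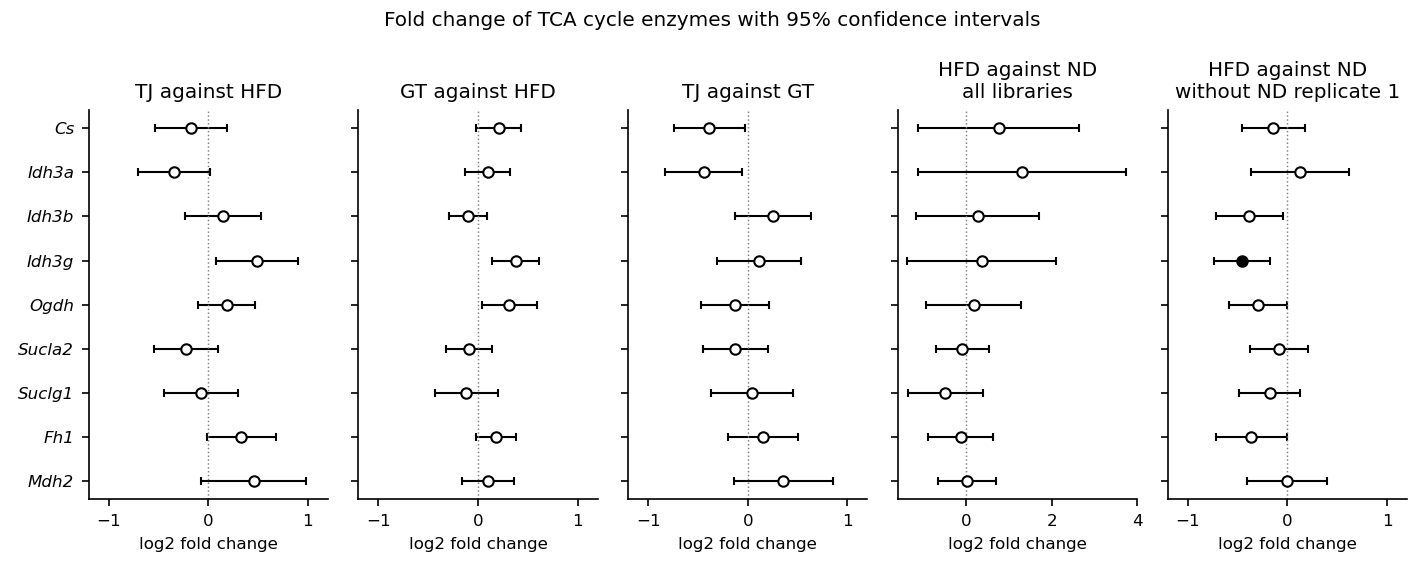
Fold change of the 9 members (y axis) on the log2(FPKM + 1) scale (x axis) in 4 comparisons and in HFD against ND without ND replicate 1, with 95% confidence intervals from limma. The filled point, Idh3g without ND replicate 1, is the only one with an adjusted p-value under 0.05, and the fourth panel has a wider axis.

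Idh3g encodes the gamma subunit of the NAD-dependent isocitrate dehydrogenase, a regulatory subunit, and lies on the X chromosome (GRCm38, 73778963 to 73786897, minus strand). Its level was 94.6, 87.6 and 98.3 FPKM in the HFD libraries, 111, 125 and 129 FPKM in the GT libraries, 113, 165 and 121 FPKM in the TJ libraries and 22.6, 133 and 124 FPKM in the ND libraries. All HFD values lay below every GT and TJ value and below ND replicates 2 and 3. Without ND replicate 1, Idh3g was lower in the HFD group than in the ND group by a log2 fold change of -0.46 (SE 0.11, adjusted p = 0.0494), just inside the threshold. It did not pass when the other 11 libraries shared the fit (adjusted p = 0.0819), a fit added after seeing the data, in which Idh3g passed in TJ against HFD (0.49, adjusted p = 0.0399, beside 26.7% of all genes). With all 3 ND libraries the log2 fold change was 0.36 (SE 0.71). Against HFD, the log2 fold change of Idh3g was 0.49 in the TJ group (95% confidence interval 0.08 to 0.90, adjusted p = 0.0816) and 0.38 in the GT group (0.14 to 0.62, adjusted p = 0.0723). Neither passed in the main fits of 6 libraries. With limma array weights, whose estimate did not converge, the GT difference passed (0.40, adjusted p = 0.00395), as 42.1% of all genes did. The TJ difference of Idh3g was 0.32 without TJ replicate 2. It was 0.11 for TJ against GT (-0.31 to 0.53) and changed sign, to -0.07, under quantile normalization. Without GT replicate 1 the GT difference passed (log2 fold change 0.44, adjusted p = 0.0471), as 10.7% of all genes did. The neighbour Ssr4, whose start lies 131 bases away on the other strand, had log2 fold changes of 0.39 in TJ and 0.04 in GT against HFD, neither of which passed.

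Idh3a encodes the catalytic alpha subunit of the same enzyme (chromosome 9, 54586334 to 54604661, plus strand). It measured 89.0, 88.5 and 91.7 FPKM in the HFD libraries, 89.9, 93.3 and 106 FPKM in the GT libraries and 70.8, 59.4 and 82.9 FPKM in the TJ libraries. Every TJ value lay below every HFD and GT value, while the HFD and GT ranges overlapped. The log2 fold change of Idh3a was -0.35 for TJ against HFD (95% confidence interval -0.71 to 0.02, adjusted p = 0.133) and -0.44 for TJ against GT (-0.83 to -0.06, adjusted p = 0.171). The former was -0.23 without TJ replicate 2. In the ND group Idh3a had 6.23, 101 and 66.7 FPKM, so that ND replicate 1 was at 0.0742 of the mean of the other two, the lowest such ratio among the members. HFD against ND gave a log2 fold change of 1.30 with all libraries (-1.14 to 3.74) and 0.13 without ND replicate 1 (-0.36 to 0.61).

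Idh3b, the beta subunit (chromosome 2, 130279309 to 130284547, minus strand), was the steadiest of the 3 subunits within the HFD and GT groups. It had 82.1, 81.2 and 82.5 FPKM under HFD, 76.7, 76.8 and 75.5 FPKM under GT, 80.4, 112 and 83.4 FPKM under TJ and 26.8, 120 and 95.7 FPKM under ND. The GT values lay below the HFD values by a log2 fold change of -0.10 (adjusted p = 0.419), which turned to 0.01 under scaling by median of ratios. The HFD values lay below those of ND replicates 2 and 3, with a log2 fold change of -0.38 without ND replicate 1 (adjusted p = 0.121) and 0.27 with it (adjusted p = 0.810). Idh3b shares 5 exonic bases with Nop56 on the opposite strand, and the use of strand in the authors' mapping is not given in the sources used here.

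Since the 3 subunits act in a single enzyme, their ratios within a library were compared, which are free of the scaling of that library but not of a trend with transcript length (median 2491 bases for Idh3a, 1616 for Idh3b and 1331 for Idh3g). The log2 ratio of Idh3a to Idh3b was 0.12, 0.12 and 0.15 under HFD, 0.23, 0.28 and 0.49 under GT and -0.18, -0.92 and -0.01 under TJ. The TJ ratios lay below all HFD ratios and the GT ratios above them. The log2 ratio of Idh3g to Idh3b was 0.20, 0.11 and 0.25 under HFD, 0.53, 0.71 and 0.78 under GT and 0.49, 0.56 and 0.54 under TJ, so that both additions lay above HFD with no overlap. The log2 ratio of Idh3a to Idh2, the NADP-dependent mitochondrial isocitrate dehydrogenase, differed by -1.17 for TJ minus HFD and by -0.27 for GT minus HFD, again without overlap. Each of these differences had an exact two-sided permutation p of 0.1, the smallest that 3 libraries against 3 allow, and an adjusted p of 0.2 over the 8 ratios in 4 comparisons. In all, 16 of these 32 ratio comparisons did not overlap, and 5 of the 8 in HFD against ND did not when ND replicate 1 was left out. The share among ratios of other genes was not computed, and single genes did not overlap in 26.4% to 51.5% of cases by comparison.

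**Figure D3:**
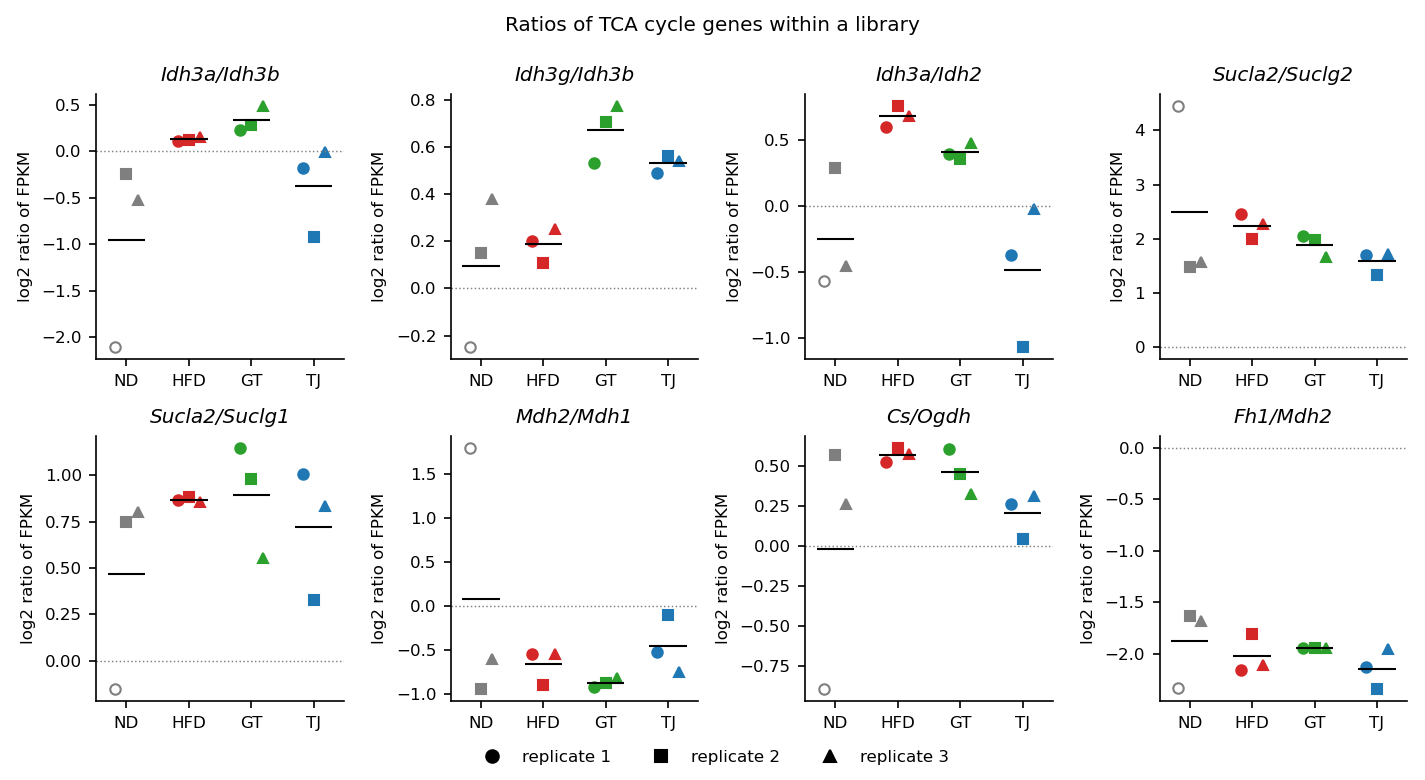
Log2 ratio of the FPKM of a pair of TCA cycle genes within a library (y axis) by diet group (x axis), with marker shape giving the replicate, the open circle ND replicate 1 and the line the group mean. For Idh3g to Idh3b the GT and TJ libraries all lie above the HFD libraries, and for Idh3a to Idh2 the HFD libraries are the highest.

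Cs encodes citrate synthase, the entry step (chromosome 10, 128337734 to 128362479, plus strand). Its level was 119, 134 and 139 FPKM under HFD, 146, 152 and 154 FPKM under GT, 122, 98.2 and 127 FPKM under TJ and 21.6, 152 and 136 FPKM under ND. All GT values lay above the HFD and TJ values, and the HFD and TJ ranges overlapped. The log2 fold change of Cs was 0.21 for GT against HFD (adjusted p = 0.201), -0.18 for TJ against HFD (adjusted p = 0.390) and -0.39 for TJ against GT (95% confidence interval -0.74 to -0.03, adjusted p = 0.182). Leaving out TJ replicate 2 moved TJ against HFD to -0.06. For HFD against ND the log2 fold change of Cs was 0.75 with all libraries and -0.14 without ND replicate 1, and it passed in neither. Csl, a citrate synthase gene of the male germ line, was at 102 FPKM in ND replicate 1, 15.4 FPKM in ND replicate 3 and 6.81 FPKM in HFD replicate 1, and at most 0.684 FPKM in the other libraries. In ND replicate 1 it exceeded Cs.

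Ogdh encodes the E1 subunit of the 2-oxoglutarate dehydrogenase complex (chromosome 11, 6291633 to 6356642, plus strand). It had 82.8, 88.0 and 93.3 FPKM under HFD, 96.3, 111 and 123 FPKM under GT, 102, 95.6 and 103 FPKM under TJ and 40.2, 103 and 114 FPKM under ND. As for Idh3g, the HFD values lay below all GT and TJ values and below ND replicates 2 and 3. The log2 fold change of Ogdh was 0.32 for GT against HFD (0.04 to 0.59, adjusted p = 0.134), 0.18 for TJ against HFD (-0.10 to 0.47, adjusted p = 0.278) and -0.30 for HFD against ND without ND replicate 1 (adjusted p = 0.158), which was 0.17 with it (adjusted p = 0.843). Ogdh has the longest transcripts of the members, with a median of 4110 bases, and over all genes the log2 fold change of TJ against HFD fell with transcript length (Spearman's rho -0.340 across genes, which are not independent). The rho was -0.503 for TJ against GT and -0.018 for GT against HFD, and with the trend removed the TJ against GT difference was -0.29 for Cs and -0.41 for Idh3a, while those of Mdh2 and Idh3b moved from 0.36 to 0.16 and from 0.25 to 0.10. Ogdh, with the trend removed, passed in TJ against HFD (log2 fold change 0.52, adjusted p = 0.0372), as 23.7% of all genes did. The TJ against HFD difference of Fh1 was then 0.53 (adjusted p = 0.0707), that of Idh3a -0.17 and that of Cs 0.05, a change of sign. In GT against HFD the values of Cs, Fh1, Idh3a and Mdh2 became 0.34, 0.31, 0.23 and 0.24, and none of them passed. Removing the trend subtracts the fitted curve of each library together with its level, so it also rescales the libraries. The median over all genes moved from -0.14 to 0.05 in TJ against HFD and from -0.12 to 0.02 in GT against HFD. The parts of rescaling and of length in these shifts were not separated.

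The ATP-forming succinyl-CoA ligase consists of an alpha subunit from Suclg1 (chromosome 6, 73248382 to 73276911, plus strand) and a beta subunit from Sucla2 (chromosome 14, 73525319 to 73596142, plus strand). Sucla2 was at 101, 87.6 and 94.2 FPKM under HFD, 92.8, 88.8 and 82.9 FPKM under GT, 83.1, 72.1 and 87.6 FPKM under TJ and 102, 102 and 97.8 FPKM under ND. Its TJ values lay just below the HFD values, with 87.57 and 87.58 FPKM as the closest, and the log2 fold change of Sucla2 was -0.22 (adjusted p = 0.252), or -0.14 without TJ replicate 2. HFD against ND gave -0.10 with all libraries and -0.09 without ND replicate 1 for Sucla2, and neither passed. Suclg1 was at 55.5, 47.5 and 52.1 FPKM under HFD, 41.9, 45.1 and 56.6 FPKM under GT, 41.4, 57.5 and 49.1 FPKM under TJ and 114, 60.9 and 56.0 FPKM under ND. The HFD, GT and TJ values of Suclg1 overlapped, with a log2 fold change of -0.08 for TJ against HFD (-0.45 to 0.30) that turned to 0.05 with scaling by median of ratios. Suclg1 was the only member whose HFD values lay apart from all 3 ND values, with a log2 fold change of -0.49 (adjusted p = 0.519), and 26.4% of all genes had groups that did not overlap in this comparison. Leaving out ND replicate 1 moved this to -0.18 (adjusted p = 0.397). The beta subunit of the GTP-forming ligase, Suclg2, had a log2 fold change of -0.77 for HFD against ND without ND replicate 1, which passed, and 0.11 with it, which did not. The log2 ratio of Sucla2 to Suclg2 was 2.24 ± 0.23 (SD, n = 3) under HFD and 1.59 ± 0.22 (SD, n = 3) under TJ, without overlap.

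Fh1 (chromosome 1, 175600374 to 175625635, minus strand) encodes fumarase, which hydrates fumarate. It had 36.0, 37.8 and 37.7 FPKM under HFD, 40.5, 42.5 and 43.7 FPKM under GT, 42.3, 56.3 and 43.6 FPKM under TJ and 29.5, 54.2 and 42.5 FPKM under ND. The HFD values lay below all others except ND replicate 1. The log2 fold change of Fh1 was 0.33 for TJ against HFD (-0.02 to 0.68, adjusted p = 0.134), 0.18 for GT against HFD (-0.02 to 0.38, adjusted p = 0.202) and -0.36 for HFD against ND without ND replicate 1 (-0.72 to -0.01, adjusted p = 0.157). Without TJ replicate 2 the TJ difference of Fh1 from HFD was 0.20, and with ND replicate 1 that of HFD from ND was -0.13 (adjusted p = 0.823).

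Mdh2 (chromosome 5, 135778480 to 135790398, plus strand) encodes the malate dehydrogenase that restores oxaloacetate. It had 161, 132 and 163 FPKM under HFD, 156, 163 and 168 FPKM under GT, 186, 286 and 169 FPKM under TJ and 149, 168 and 136 FPKM under ND. The TJ values lay above the HFD and GT values, with TJ replicate 2 far above the other 11 libraries. The log2 fold change of Mdh2 was 0.46 for TJ against HFD (-0.07 to 0.98, adjusted p = 0.163) and 0.23 without TJ replicate 2. It was 0.36 for TJ against GT (-0.14 to 0.85, adjusted p = 0.307), or 0.13 without TJ replicate 2. For GT against HFD it was 0.10 (adjusted p = 0.563), or 0.0037 without HFD replicate 2 and 0.15 without HFD replicate 3. With ND replicate 1 left out, the HFD and ND means were 152 ± 17.1 FPKM (SD, n = 3) and 152 ± 22.3 FPKM (SD, n = 2), and the 95% confidence interval of their log2 fold change ran from -0.40 to 0.40. With it, the log2 fold change of Mdh2 was 0.0086 (adjusted p = 0.989).

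By position of the values, the groups did not overlap in 6 of 9 members for TJ against HFD, where 51.5% of all genes did not overlap, and in 5 of 9 for GT against HFD (36.7% of all genes). They did not overlap in 4 of 9 for TJ against GT (34.4% of all genes) and in 5 of 9 for HFD against ND without ND replicate 1 (47.2% of all genes). The exact two-sided permutation p of each such member was 0.1 with 3 libraries against 3, or 0.2 without ND replicate 1, the smallest these designs allow. After the values had been seen, the genes whose 3 HFD values lay below all 8 other libraries, ND replicate 1 left out, were counted. They were 3 of the 9 members (Idh3g, Ogdh and Fh1), 4 of 8 other TCA cycle genes (Idh2, Dlst, Suclg2 and Sdhd) and 5.93% of 13120 genes. None of these members and other cycle genes had its HFD values above all 8 others, as 11.5% of all genes did.

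Markers of several cell types differed between the same groups. The shares of all genes that passed, to be set beside the counts below, were 20.5% for TJ against HFD and 4.82% for GT against HFD. For HFD against ND they were 1.77% with all libraries and 16.0% without ND replicate 1 (4.54% with a lower level). The summed adipocyte markers were 18400 to 21760 FPKM under HFD, 28440 to 36970 FPKM under GT and 37790 to 71400 FPKM under TJ, and HFD was the lowest of the 11 libraries for 6 of the 8 markers. In limma 6 of the 8 rose in TJ and 3 of the 8 in GT against HFD. The summed macrophage markers were 2893 to 4048 FPKM under HFD, 1202 to 2644 FPKM under GT and 719 to 2123 FPKM under TJ, and HFD was the highest for 7 of the 8. In TJ against HFD 7 of the 8 fell, and in GT against HFD 0 of the 8 passed, although all 8 had an unadjusted p-value under 0.05. None of these marker calls in TJ against HFD was left without TJ replicate 1 or any one of the HFD libraries, and the 3 in GT against HFD were kept only without GT replicate 1. With ND replicate 1 left out of HFD against ND, 6 of the 8 adipocyte markers fell and all 8 macrophage markers rose. With it, limma passed 0 of the 8 adipocyte markers (4 higher, 4 lower, 0 at an unadjusted p-value under 0.05), and 2 of the 8 macrophage markers rose, of which none was left without any other single library. Of 5 stromal markers, which summed to 1144 to 1199 FPKM under HFD, 755.8 to 898.5 FPKM under GT and 645.1 to 770.0 FPKM under TJ, 3 fell in TJ and 2 in GT against HFD. These became 0 in TJ without TJ replicate 1 or any one of the HFD libraries, and in GT 1 without HFD replicate 1 and 0 without HFD replicate 2 or 3 or GT replicate 2 or 3. HFD was the highest of the 11 libraries for 3 of them, and 3 rose in HFD against ND without ND replicate 1 but 0 with it. Of 5 endothelial markers 1 rose and of 5 mesothelial markers 1 fell in TJ against HFD, counts near the share of all genes. In GT against HFD limma passed 0 of either, with 1 of each under 0.05 before adjustment. With the transcript length trend removed (23.7% of all genes), 5 of the 5 endothelial markers rose and the mesothelial call was lost in TJ against HFD. Array weights passed 3 of the 5 endothelial markers there (16.5% of all genes). The part of these cell types in the levels of the TCA cycle genes was not tested.

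Of 8 other genes of the cycle (Idh2, Dlst, Dld, Suclg2, Sdha, Sdhb, Sdhc and Sdhd), 2 rose in TJ against HFD and 0 fell, a count near the 20.5% of all genes that passed. Idh2 rose from 58.8, 52.4 and 57.2 FPKM to 91.8, 125 and 84.4 FPKM (log2 fold change 0.81, adjusted p = 0.0299), and Sdhc, a membrane anchor of succinate dehydrogenase, by 0.65 (adjusted p = 0.0472). Neither passed without HFD replicate 1, 2 or 3 or TJ replicate 1, Idh2 alone passed without TJ replicate 2, and Sdhd, the other anchor, passed beside them without TJ replicate 3. The median of the 8 was 0.42, against 0.15 for the 9 members and -0.14 for all genes. In limma 0 of the 8 passed in GT against HFD, with 4 at an unadjusted p-value under 0.05 and a median of 0.24. With all ND libraries, 0 passed in HFD against ND by the adjusted and 0 by the unadjusted p-value. With ND replicate 1 left out, 16.0% of all genes passed and 4.54% passed with a lower level. Of the 8, 3 then fell, namely Suclg2 (-0.77), Sdha (-0.75) and Idh2 (-0.63), and none rose. With ND replicate 1, none passed and the values were 0.11 for Suclg2, 0.07 for Sdha and 0.40 for Idh2. In TJ against GT 0 of the 8 passed, with 3 at an unadjusted p-value under 0.05.

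Among the 11 genes of the pyruvate dehydrogenase complex, its kinases and its phosphatases, which set the supply of acetyl-CoA from pyruvate, 1 rose and 3 fell in TJ against HFD, where 20.5% of all genes passed. Pdk2, a kinase that inactivates the complex, rose from 36.1, 29.6 and 25.4 FPKM to 61.8, 109 and 56.3 FPKM (log2 fold change 1.24). Pdpr (-1.45) and Pdp1 (-0.58), of the phosphatase, and the kinase Pdk1 (-0.60) fell. All 4 calls were lost when an HFD library or TJ replicate 1 was left out, and those of Pdpr and Pdp1 also without TJ replicate 2. In GT against HFD limma passed 0 of the 11, and 2 were under 0.05 before adjustment. In HFD against ND without ND replicate 1, 16.0% of all genes passed and 4.54% passed with a lower level. There Pdk2 (-1.71) and Pdha1 (-0.73), the catalytic alpha subunit, fell. With ND replicate 1, Pdk2 was at -1.36 and Pdha1 at 0.54, and neither passed. The germ cell counterpart Pdha2 was at 23.8 FPKM in ND replicate 1, where Pdha1 was at 9.86 FPKM.

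Of the 21 genes by which intermediates enter and leave the cycle, 3 rose and 3 fell in TJ against HFD, where 20.5% of all genes passed. Pck1, the phosphoenolpyruvate carboxykinase of glyceroneogenesis, rose from 266, 246 and 227 FPKM to 940, 1626 and 818 FPKM (log2 fold change 2.13, adjusted p = 0.0196). The subunits of the mitochondrial pyruvate carrier rose as well, Mpc2 by 0.78 and Mpc1 by 0.60. The aspartate-glutamate carrier Slc25a13 (-2.11), ATP citrate lyase Acly (-1.25) and the aspartate aminotransferase Got2 (-1.02) fell. Slc25a13 was near the floor under TJ, with 2.1, 0.39 and 2.1 FPKM. Got2 had 28.8, 47.6 and 26.6 FPKM under HFD, so that HFD replicate 2 lifted the mean. In GT against HFD, where 4.82% of all genes passed, Pck1 (1.53) and Mpc1 (0.46) rose, and Slc25a13 (-1.34) and the related carrier Slc25a12 (-0.67) fell. In HFD against ND without ND replicate 1 (16.0% of all genes), Pck1 (-3.05), pyruvate carboxylase Pcx (-0.71) and Aco1 (-0.53) fell, and Slc25a13 (2.36), the dicarboxylate carrier Slc25a10 (1.58), cytosolic Idh1 (1.24) and the 2-oxoglutarate carrier Slc25a11 (0.60) rose. With all ND libraries limma passed 0 of the 21, with 5 under 0.05 before adjustment, and Pcx (0.42) and Aco1 (0.47) then had the opposite sign, while Pck1 was at -1.48 and Slc25a13 at 2.28. In TJ against GT it passed 0, with 7 under 0.05. The 6 calls in TJ against HFD were all lost on leaving out any HFD library or TJ replicate 1, and the 4 in GT against HFD on leaving out any HFD library or GT replicate 2 or 3.

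Of the 7 transcriptional regulators of mitochondrial genes (Ppargc1a, Ppargc1b, Esrra, Nrf1, Gabpa, Tfam and Yy1), 5 were tested in TJ against HFD and 6 in GT against HFD, limma passed 0 in either, and in each 1 was under 0.05 before adjustment. Esrra, the nuclear receptor ERR alpha, rose in HFD against ND without ND replicate 1 (0.66, adjusted p = 0.0355) but not with it (0.66, adjusted p = 0.394). For the OXPHOS subunits, into which the cycle delivers its electrons, the median log2 fold change in TJ against HFD was 0.80 with 31 of 80 tested genes passed, beside 0.15 and 0 of 9 for the members and 20.5% of all genes. With the transcript length trend removed, the OXPHOS median was 0.65 with 37 passed, and that of the members was 0.15 with 1 passed. That removal also rescales the libraries, and the median of all genes moved with it from -0.14 to 0.05. The OXPHOS count was 8 with the replicate block and 17 with array weights. It was 0 on leaving out an HFD library or TJ replicate 1, and 50 without TJ replicate 3. In GT against HFD the OXPHOS median was 0.07.

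**Figure D4:**
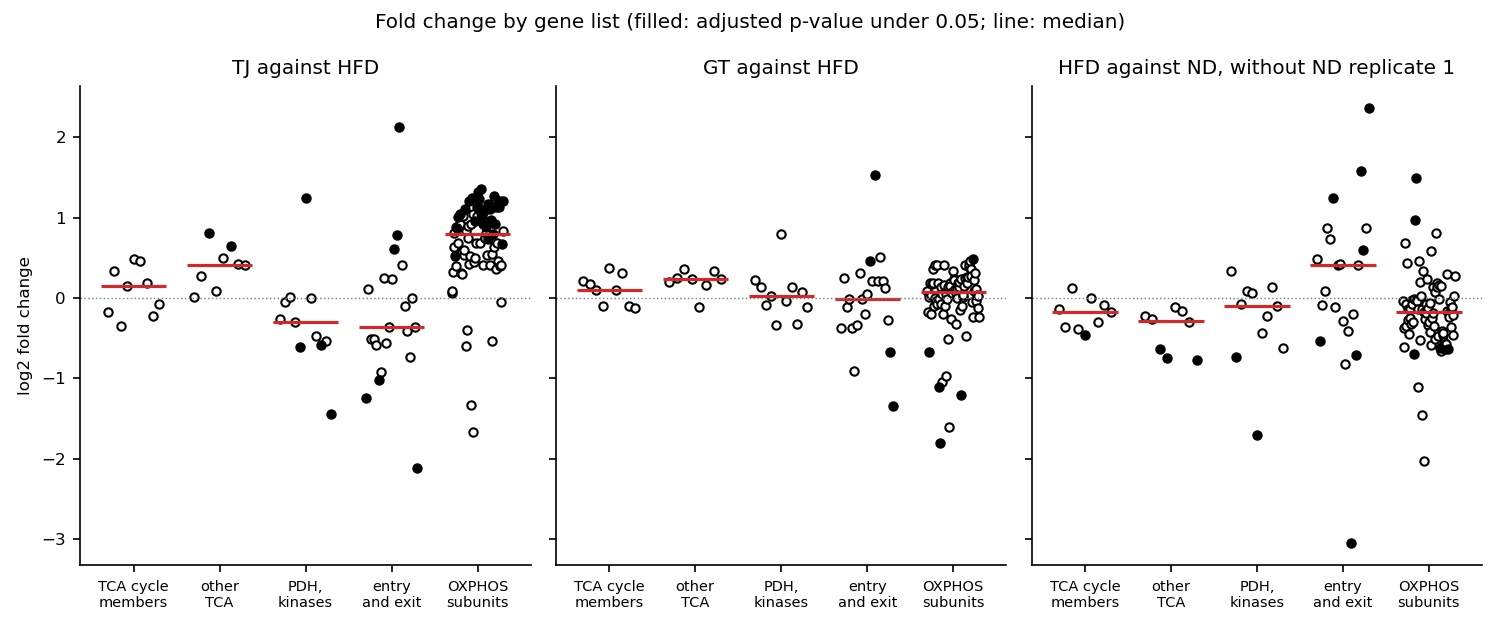
Log2 fold change (y axis) of the genes of 5 lists (x axis) in TJ against HFD, GT against HFD and HFD against ND without ND replicate 1, with filled points at an adjusted p-value under 0.05 and the line at the median. The members lie within 0.5 of 0 in each panel, while Pck1 and Slc25a13 lie furthest from 0 on opposite sides, except in GT against HFD, where some OXPHOS genes lie below Slc25a13.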

How the data were processed

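RNA was from eWAT, with TruSeq libraries read as 2×100 bases. The authors mapped the reads with STAR, whose version is given differently in the methods and in the submitters' processing notes (2.4.0), to Ensembl release 72, and computed the deposited FPKM with Cufflinks 2.1.1, with noncoding regions masked and corrections for multireads and fragment bias. A human genome is named there, and all 23474 identifiers are mouse. Gene names and coordinates came from GENCODE M21 (GRCm38), which named 22671 of the identifiers. No pair of the 12 libraries held identical values, and depth and counting error are unknown from FPKM.

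The main test was limma 3.58.1 under R 4.3.3 (lmFit, eBayes with a trend) on log2 values of FPKM plus a pseudocount of 1, in the 6 libraries compared, for genes whose mean reached 1 FPKM, with Benjamini-Hochberg adjustment over all of them. A fold change on this scale understates that of low genes. Exact permutation tests used scipy 1.17.1. The limma function was run on values simulated for TJ against GT alone, with each gene drawn independently from a normal distribution. The outcome is not reported here, and the simulation does not cover libraries in which many genes shift together. The limma p-values set a difference against the spread between these libraries, moderated over all genes. The permutation p-values set it against the other groupings of the same libraries. All members were named, and of the other lists the genes that passed, up to 4 in either direction, and those with the highest or lowest values, though not every gene of that rule is printed. The members and lists were chosen with earlier results of these data known. An item of the list of other cycle genes is not reported here.

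Whether replicate numbers pair the libraries was checked by the correlation of deviations from the group means over genes. It was 0.55, 0.34 and 0.12 for HFD against ND, all over 0.1, the limit set for pairing. No source names what libraries of the same number share. A pair with different numbers, HFD replicate 3 and ND replicate 2, had 0.63, above all of these. The correlations therefore do not single out the shared numbers. In the other comparisons at least 1 pair was under 0.1.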

Additional observations from a re-analysis of the deposited data

Results flagged for a closer look

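Cs and Idh3a were singled out because every GT library lay above the mean of the HFD group and every TJ library below it. Both differences are taken from the same 3 HFD libraries. The difference between the additions was tested directly in limma as TJ against GT. The log2 fold change was -0.39 for Cs (adjusted p = 0.182) and -0.44 for Idh3a (adjusted p = 0.171), and neither passed. TJ replicate 2 held the lowest value of both genes among the TJ libraries.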

How the results depend on the processing

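In all 4 comparisons the number of members that passed stayed at 0 with a pseudocount of 0.1, without a filter, with a minimum mean of 5 FPKM, with either other scaling (median of ratios or quantile), with the 12 libraries fitted together, with eBayes without the trend and with the replicate block. In HFD against ND, where every same-numbered pair of libraries correlated over 0.1, the replicate block passed 0 members and 0 other TCA cycle genes. It passed 0 other TCA cycle genes in TJ against HFD, where the main count was 2.

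With the transcript length trend removed, which also rescales the libraries, TJ against HFD passed 1 member (Ogdh) and 4 other TCA cycle genes, beside 23.7% of all genes. The fit of all libraries except ND replicate 1, added after seeing the data, passed 1 member in TJ against HFD (Idh3g, beside 26.7% of all genes) and 3 other TCA cycle genes in HFD against ND (22.5%). With ND replicate 2 as the only ND library, also added, 2 members (Idh3b and Fh1) and 4 other genes passed in HFD against ND, beside 21.1% of all genes, and the spread came from the HFD libraries alone, the lone ND library being assumed to vary like them. In TJ against HFD the other TCA cycle genes numbered 0 without a filter, 0 with all 12 libraries, 0 with HFD replicate 3 as the only HFD library (also added) and 1 for eBayes without the trend. Leaving out single libraries gave 0 to 1 members in HFD against ND and in GT against HFD (Idh3g each time, beside 16.0% and 10.7% of all genes), 0 to 3 other TCA cycle genes in HFD against ND and 0 to 3 in TJ against HFD.

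Array weights gave 4 members and 5 other TCA cycle genes in GT against HFD (42.1% of all genes passed), 3 and 3 in HFD against ND (56.2%), 3 and 6 in TJ against GT (66.6%), and 1 other gene in TJ against HFD (16.5%). The estimate of the weights stopped before converging in all 4 comparisons, with weights from 0.0142 to 6.09 within TJ against HFD and from 0.279 to 45.6 within GT against HFD.

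Signs of log2 fold changes that had not passed turned as follows. In HFD against ND array weights gave -0.0198 for Cs, -0.23 for Idh3b, -0.39 for Idh3g and -0.33 for Ogdh. ND replicate 2 alone gave -0.22 for Cs, -0.17 for Idh3a, -0.54 for Idh3b, -0.51 for Idh3g, -0.22 for Ogdh and -0.15 for Mdh2. All libraries except ND replicate 1 gave -0.14 for Cs, -0.38 for Idh3b, -0.46 for Idh3g, -0.30 for Ogdh and -0.0002 for Mdh2. Scaling by median of ratios gave -0.0463 for Ogdh and -0.21 for Mdh2, quantile normalization 0.0723 for Sucla2 and the removed length trend -0.10 for Ogdh. In TJ against HFD the removed length trend gave 0.0523 for Cs and scaling by median of ratios 0.051 for Suclg1. In GT against HFD scaling by median of ratios gave 0.0092 for Idh3b and 0.016 for Sucla2, the removed length trend 0.0345 for Idh3b, 0.0382 for Sucla2 and 0.0207 for Suclg1, and HFD replicate 3 alone -0.0026 for Mdh2. In TJ against GT quantile normalization gave -0.0728 for Idh3g and -0.0269 for Suclg1, array weights -0.13 for Idh3g, -0.13 for Suclg1 and -0.0013 for Fh1, and the removed length trend -0.12 for Idh3g, 0.0586 for Ogdh and -0.14 for Suclg1.

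With single libraries left out, HFD against ND ranged from -0.14 to 1.24 for Cs, -0.38 to 0.68 for Idh3b, -0.46 to 0.80 for Idh3g, -0.30 to 0.44 for Ogdh, -0.36 to 0.0672 for Fh1 and -0.0615 to 0.11 for Mdh2. TJ against HFD ranged from -0.0012 to 0.24 for Idh3b and -0.19 to 0.0415 for Suclg1, and TJ against GT from -0.0545 to 0.22 for Idh3g and -0.0713 to 0.17 for Suclg1. Against 2626 (TJ against HFD), 615 (GT against HFD), 255 (HFD against ND) and 18 (TJ against GT) as reported, the genes that passed numbered, in that order, 414, 5, 193 and 6 without a filter, 0, 1, 1136 and 2 with the 12 libraries fitted together, and 2114, 5375, 8109 and 8119 with array weights. The replicate block gave 1198 in TJ against HFD, 5 in GT against HFD and 0 in HFD against ND. A pseudocount of 0.1 gave 126 in HFD against ND and 11 in TJ against GT, eBayes without the trend 67 in GT against HFD, a minimum mean of 5 FPKM 6 and quantile normalization 29 in TJ against GT. The added fits gave 0 in TJ and 0 in GT against HFD with HFD replicate 3 alone, 2744 in HFD against ND with ND replicate 2 alone, and 2949 in HFD against ND, 132 in GT against HFD and 118 in TJ against GT with ND replicate 1 left out of the 12. Scaling moved the balance of higher and lower calls from 1077 and 1549 in TJ against HFD to 1408 and 1325 by median of ratios and 1832 and 1331 by quantiles, and from 310 and 305 in GT against HFD to 498 and 197 and to 562 and 228. The causes were not tested. Of the 32 ratio comparisons, 16 to 19 did not overlap when a library was left out. This count could only stay or rise, since leaving out a library narrows the range of its group. Depth was not given with the FPKM, and 3 libraries a group limit what can be told, since an exact test cannot go below 0.1.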
